A study of Mus musculus with 7 samples.

Results

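The genes described here are 8 transcripts that mark islet cells other than beta cells, measured in a mouse beta-cell line. They are the hormone genes Gcg, Sst and Ppy, the secreted carrier genes Ttr and Rbp4, and the homeobox genes Irx1, Irx2 and Hhex. They were chosen by gene symbol, and all 8 were found among the 23329 symbols of the deposited count table. Polyadenylated RNA came from Beta-TC6 cells, a mouse insulinoma line kept in DMEM with 15% serum. All 7 libraries were wild type; IL1B, the cytokine interleukin-1 beta, had been given to 3 and its vehicle to 4. Forskolin, which activates adenylyl cyclase, was given to both groups (10 µM, for 1 h), so no library shows these genes without it. The dose and duration of IL1B are not given in the labels. The values are those of a tumour line in culture and not of the alpha, delta and PP cells of an intact islet.

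An islet holds several endocrine cell types. Alpha cells secrete glucagon from the Gcg precursor, delta cells secrete somatostatin from Sst, and PP cells secrete pancreatic polypeptide from Ppy. Ttr encodes transthyretin, a carrier of thyroid hormone that is abundant in alpha cells, and Rbp4 encodes the retinol carrier that marks mouse delta cells. Irx1 and Irx2 are neighbouring Iroquois homeobox genes expressed in alpha cells, and Hhex is a homeobox factor needed for delta-cell identity. Lines from islet tumours can transcribe more than one islet hormone.

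The start regions of the 3 hormone genes and of Irx2, the gene among the 8 that passed the test of IL1B, are shown because they let the members be compared at the level of sequence. Each run holds 250 bases before and 50 bases from the RefSeq start site (GRCm38.p6), on the gene's strand, 5′ to 3′. Capitals mark matches to the cAMP response element TGACGTCA or its core TGACG (either strand), or to the TATA box TATAAA (gene strand).
Gcg, chr2:62483604-62483903, minus strand: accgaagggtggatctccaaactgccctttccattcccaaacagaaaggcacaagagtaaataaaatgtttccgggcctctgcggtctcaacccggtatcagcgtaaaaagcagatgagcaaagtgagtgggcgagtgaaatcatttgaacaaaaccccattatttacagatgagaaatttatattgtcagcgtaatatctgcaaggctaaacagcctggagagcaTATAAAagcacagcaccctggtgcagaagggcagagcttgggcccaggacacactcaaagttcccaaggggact
Sst, chr16:23890795-23891094, minus strand: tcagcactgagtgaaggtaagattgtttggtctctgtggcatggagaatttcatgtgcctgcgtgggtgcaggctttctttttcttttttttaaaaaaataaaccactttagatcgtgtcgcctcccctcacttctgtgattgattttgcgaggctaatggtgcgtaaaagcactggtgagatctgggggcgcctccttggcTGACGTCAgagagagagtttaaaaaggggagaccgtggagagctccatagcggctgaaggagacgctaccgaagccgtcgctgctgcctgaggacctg
Ppy, chr11:102101270-102101569, minus strand: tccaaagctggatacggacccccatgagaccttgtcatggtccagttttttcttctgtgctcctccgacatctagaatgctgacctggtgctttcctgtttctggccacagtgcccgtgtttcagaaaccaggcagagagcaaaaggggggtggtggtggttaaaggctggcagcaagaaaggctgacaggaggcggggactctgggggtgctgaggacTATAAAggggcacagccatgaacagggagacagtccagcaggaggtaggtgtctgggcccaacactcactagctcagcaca
Irx2, chr13:72628570-72628869, plus strand: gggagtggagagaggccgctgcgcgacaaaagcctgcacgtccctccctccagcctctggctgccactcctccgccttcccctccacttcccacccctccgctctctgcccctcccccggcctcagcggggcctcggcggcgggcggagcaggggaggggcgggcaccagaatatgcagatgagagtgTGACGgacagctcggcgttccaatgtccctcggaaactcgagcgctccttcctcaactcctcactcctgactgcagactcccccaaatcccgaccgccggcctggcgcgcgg

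Only the Sst run among these 4 held the full cAMP response element, from base -48 to -41 relative to the start, and this palindrome contains both of its core matches. The element was found in 1.79% of 32851 RefSeq promoter windows of 300 bases. Irx2 held 1 core, from -62 to -58, and the core was present in 20.8% of the windows. TATA boxes lay from -24 to -19 in Gcg and from -31 to -26 in Ppy, with this motif in 8.32% of the windows. The NF-kB consensus, searched on both strands, was not matched in these 4 runs and was matched in 4.51% of the windows. A match is a string of letters and not a measured binding site, and these windows leave out more distant sequence.

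Libraries held 5335607 to 7513934 counts. Counts of any 2 libraries of a group differed beyond sampling noise (chi-square divided by its degrees of freedom, 1.52 or more in each of 9 pairs). The second library of each group stood apart: pairs that included one gave 2.87 to 4.87 and the other pairs 1.52 to 1.69. They were not alike: in vehicle library 2, genes with shorter transcripts lay above their group mean (Spearman rho of the deviation with length -0.575, against 0.238 to 0.311 in the 3 other vehicle libraries), while rho was 0.024 in IL1B library 2. These rho values are across 10955 tested genes with a length (87.8%), which are not independent replicates. The labels do not say whether the libraries came from separate cultures, so the p-values measure the spread between these samples only. The response to IL1B was present: Nfkbia, an NF-kB target that encodes its inhibitor, rose from 31.3 ± 1.51 to 472 ± 18.4 CPM (the count scaled to a library total of 1e+06; SD, n = 4 and 3). Of 12480 genes tested, 968 rose (7.76%) and 406 fell (3.25%) by edgeR.

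The label of a beta-cell line was borne out by most of its defining transcripts. With vehicle, Ins2 stood at 21340 ± 1464 CPM, Iapp at 7933 ± 462 and Ins1 at 3334 ± 181 (SD, n = 4), while Ucn3, a marker of mature beta cells, had 30 counts over the 4 vehicle libraries. Markers of exocrine, stromal and blood cells were low. The summed level of 7 exocrine and duct genes was 18.6 to 23.3 CPM with vehicle and 19.8 to 20.8 with IL1B, with Cpa1, Prss2 and Amy2a5 at 0 counts in all 7 libraries. That of 6 stromal and endothelial genes was 5.31 to 7.68 and 5.02 to 8.18, and that of 5 leukocyte genes 2.44 to 4.22 and 3.16 to 4.74. Within these lists, chosen after their values were seen, Pecam1, an endothelial gene, had 17 vehicle and 41 IL1B counts, Itgam, a myeloid gene, 0 and 5, and Col3a1, a fibroblast collagen, 8 and 0, each with groups that did not overlap. Over all tested genes, groups did not overlap for 11.8% with IL1B lower and 10.1% with IL1B higher. The low-count filter of edgeR left out Pecam1, Itgam and Col3a1. With no such filter, and with a minimum of 1 CPM in 3 libraries, 1 stromal and endothelial gene rose. The part of these genes in the results below was not tested.

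At baseline, in vehicle, the 8 genes spread from among the line's clearly expressed transcripts to no count at all. Levels between genes are given as CPM per kilobase of the longest annotated coding transcript. On this scale Ttr stood at 593 ± 41.7, Sst at 402 ± 26.0, Gcg at 288.5 ± 13.5, Rbp4 at 39.3 ± 4.37, Irx2 at 3.53 ± 0.330, Ppy at 2.57 ± 1.31 and Irx1 at 0.966 ± 0.112 (SD, n = 4), and Hhex at 0. The ranges of Ttr, Sst, Gcg and Rbp4 over the libraries did not overlap each other. Those of Irx2 and Ppy did, from 3.09 to 3.88 and from 0.75 to 3.57, and Irx1, at 0.869 to 1.12, lay within the range of Ppy. The order of several genes rests on the transcript length: with the shortest coding transcript of Gcg, 654 bases against 1088, Gcg was at 457 to 510 and Sst, which has 1 coding transcript, stayed at 381 to 440. With the shortest coding transcripts Irx2 was at 18.1 to 22.7, Irx1 at 4.14 to 5.33 and Ppy at 0.77 to 3.67, so that Irx1 lay above Ppy and none of these 3 ranges overlapped. With its longest coding transcript Ins2 stood at 23250 ± 1595 CPM per kilobase, and with its shortest at 76790 to 90240.

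**Figure D1:**
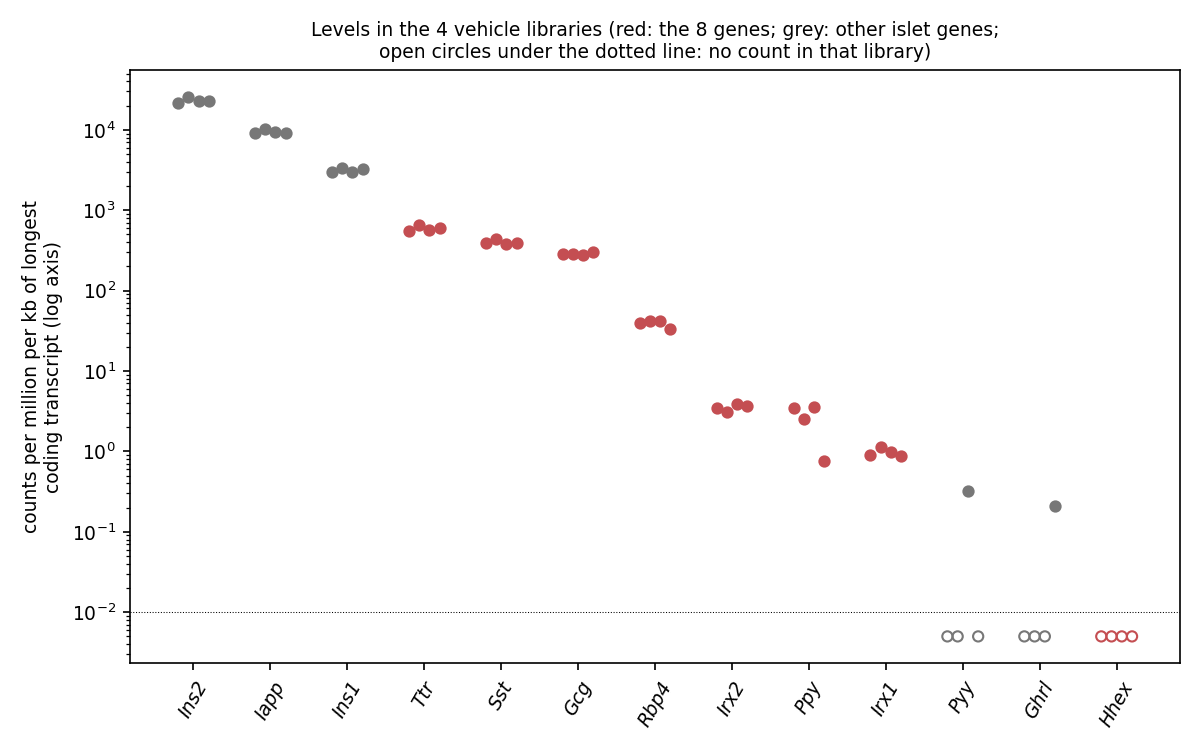
CPM per kilobase of the longest coding transcript (log axis) in each of the 4 vehicle libraries, 1 point per library, for the 8 genes (red) and other islet genes (grey); open circles under the dotted line are libraries with no count. Ttr, Sst and Gcg lie below the insulin genes and Iapp and above Rbp4, and Hhex has no count.

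The delta-cell hormone and its homeobox factor were at unlike levels, with Sst at 402 CPM per kilobase and no Hhex count. The vehicle limit for Hhex that a count of 0 allows, 3 counts over the group, is 0.121 CPM and covers counting error only. Pyy, a peptide related to Ppy, and Ghrl, the epsilon-cell hormone ghrelin, had 1 count each over the 4 vehicle libraries. These are averages over all cells of a library, so fewer cells with a transcript and less of it per cell cannot be told apart, here and in every comparison below.

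With IL1B, Irx2 fell, and the other tested members did not pass the test. In CPM of the library total, Gcg and Ppy were lower in every IL1B library than in any vehicle library. The low-count filter of edgeR kept 6 of the 8 genes and left out Ppy and Hhex. Of the 6, 1 fell and none rose, where 3.25% of all tested genes fell and 7.76% rose. With so few members, 1 of 6 shows nothing particular to them. No member rose by DESeq2 or limma-voom either, or at an unadjusted edgeR p under 0.05, where Gcg and Irx2 were lower. In these CPM, groups did not overlap for Gcg and Irx2 among the 6, both with IL1B lower. The share over all tested genes was 11.8% with IL1B lower and 10.1% with IL1B higher.

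**Figure D2:**
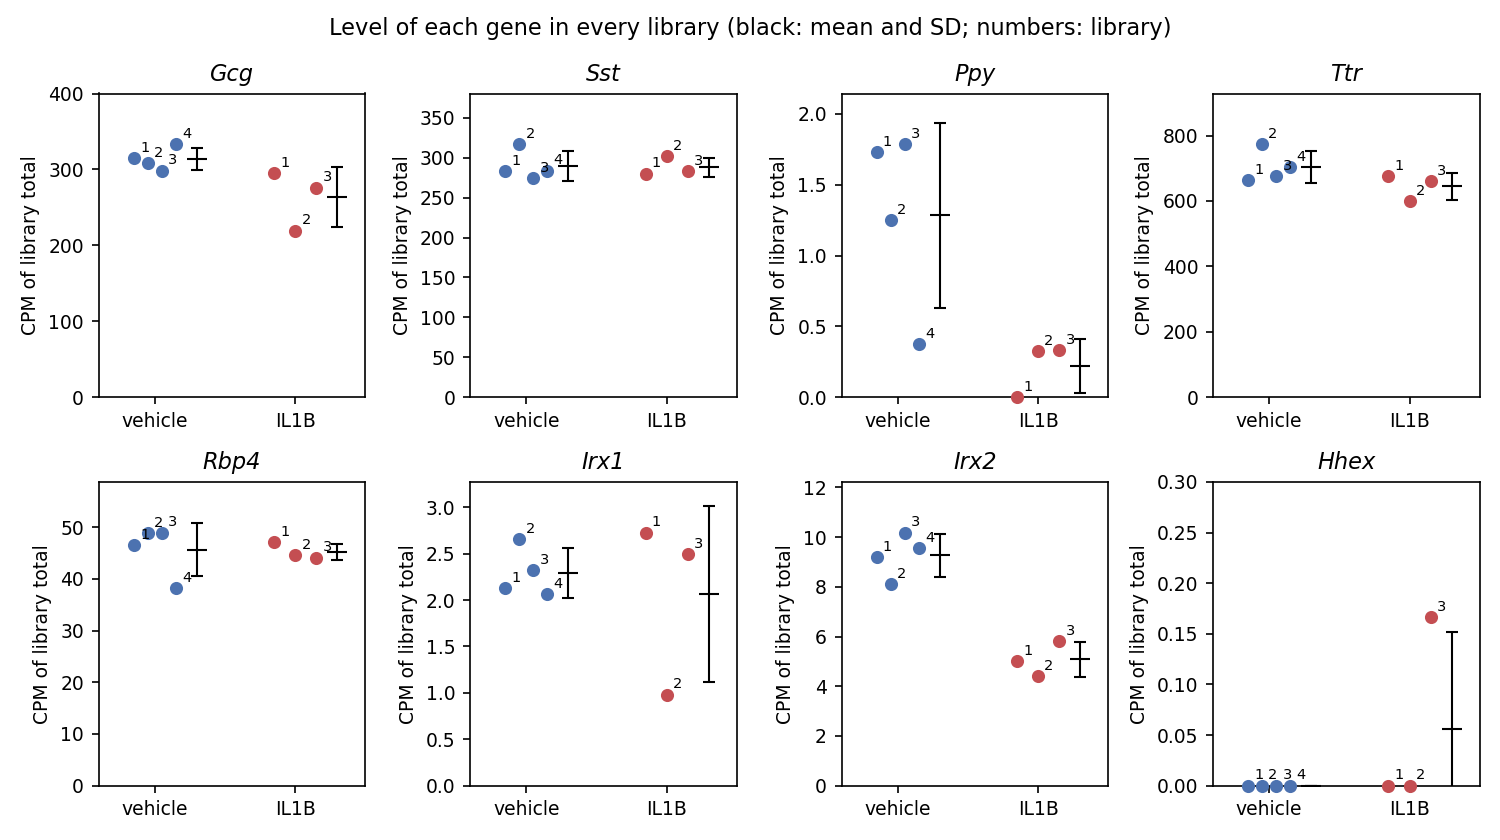
Level of each of the 8 genes in CPM of the library total (linear axes from 0, scaled for each gene), 1 point per library with its number in the count table, for vehicle (blue, n = 4) and IL1B (red, n = 3); black marks give mean and SD. The groups are apart for Gcg, Irx2 and Ppy and overlap for Sst, Ttr, Rbp4 and Irx1.

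Among the hormones, Gcg (chromosome 2, 62474530 to 62483650, minus strand, GRCm38) stood at 315, 308.6, 299 and 333 CPM in vehicle libraries 1 to 4, and at 295, 219.5 and 276 CPM in IL1B libraries 1 to 3. On this scale the groups did not overlap. The 95% counting intervals of the lowest vehicle library (284 to 313) and the highest IL1B library (282 to 308) did. After the TMM scaling that edgeR uses the groups overlapped, with the first IL1B library at 298.9 CPM and the third vehicle library at 294. Means were 314 ± 14.7 (SD, n = 4) and 263.5 ± 39.2 (SD, n = 3). The log2 fold change was -0.22 (SE 0.08, 95% interval -0.38 to -0.05), a difference that did not pass by edgeR (adjusted p = 0.0887). The second IL1B library, whose counting interval was 208 to 232 CPM, was the lowest of all 7: without it the log2 fold change was -0.10 (adjusted p = 0.417), and without the first IL1B library it was -0.31 and passed (adjusted p = 0.0234). It also passed with total-count scaling (adjusted p = 0.0443; 4.46% of genes fell and 6.76% rose there) and with no low-count filter (0.0075; 2.78% fell and 5.49% rose).

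Set against insulin, the line's main hormone, the Gcg level per kilobase was 1.34%, 1.11%, 1.2% and 1.33% of that of Ins2 in vehicle libraries 1 to 4. With IL1B it was 1.13%, 0.815% and 1.09%. These percentages use the longest coding transcripts. With the shortest Ins2 transcript all of them would be lower by the same factor, so the comparison of the groups does not rest on this length. The first IL1B library lay above the second vehicle library, so the groups overlapped. The mean was 1.25% ± 0.107 (SD, n = 4) with vehicle and 1.01% ± 0.172 (SD, n = 3) with IL1B, and the difference did not pass a two-sided exact permutation test (log2 difference -0.31, p = 0.114, where the smallest p this design allows is 0.0571). Without the second IL1B library the log2 difference was -0.16. Ins2 itself averaged 21340 ± 1464 CPM with vehicle (SD, n = 4) and 22040 ± 675 with IL1B (SD, n = 3), with overlapping groups. This rise of 0.08 log2 units did not pass by edgeR (adjusted p = 0.416), nor in 13 of 15 alternative fits. It passed without vehicle library 2 (0.0274) and with both second libraries left out (0.0194). The ratio thus holds the shifts of both genes, and their parts in it were not tested.

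Sst (chromosome 16, 23889573 to 23890958, minus strand), with the cAMP response element shown above, did not pass. It stood at 284, 317, 275 and 284 CPM in the vehicle libraries and at 280.1, 302 and 283 CPM in the IL1B libraries. The highest value in each group belonged to its second library, and the groups overlapped. The part of the length trend of vehicle library 2 in this was not tested. The log2 fold change was 0.02 (SE 0.06, 95% interval -0.11 to 0.16, edgeR adjusted p = 0.875). The second IL1B library was thus the highest of its group for Sst and the lowest for Gcg.

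Ppy (chromosome 11, 102099930 to 102101319, minus strand) was low in every library. Vehicle libraries 1 to 4 had 13, 8, 10 and 2 counts, and IL1B libraries 1 to 3 had 0, 2 and 2. The levels were 1.73, 1.25, 1.79 and 0.375 CPM against 0, 0.327 and 0.333, so the groups did not overlap in CPM, although the fourth vehicle library had the same count as 2 IL1B libraries. Over the groups, 33 vehicle and 4 IL1B counts gave a ratio of 0.161 (95% counting interval 0.0415 to 0.454). With all 7 libraries Ppy could be tested only with another filter. With no low-count filter the log2 fold change was -2.52 (SE 0.69, edgeR adjusted p = 0.0048), where 2.78% of genes fell, and with a minimum of 1 CPM in 3 libraries the adjusted p was 0.0261. Without the first IL1B library, which had no Ppy count, the unfiltered fit no longer passed (log2 fold change -1.92, adjusted p = 0.127). The standard filter kept Ppy when an IL1B library was left out, and it did not pass there (edgeR adjusted p = 0.114, 0.0628 and 0.0629 without IL1B library 1, 2 and 3). With both second libraries left out it passed (0.0327).

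Neither carrier gene passed. Ttr (chromosome 18, 20665280 to 20674321, plus strand) stood at 663, 774, 675 and 704 CPM in the vehicle libraries and at 677, 599 and 660.5 CPM in the IL1B libraries. Its highest vehicle value and its lowest IL1B value were both in the second libraries, and the groups overlapped. The log2 fold change was -0.09 (SE 0.06, 95% interval -0.23 to 0.04, edgeR adjusted p = 0.435), -0.04 without vehicle library 2, and 0.01 with both second libraries left out. Rbp4 (chromosome 19, 38116629 to 38125281, minus strand) stood at 46.6, 48.9, 49.0 and 38.2 CPM with vehicle and at 47.1, 44.7 and 44.1 CPM with IL1B. The fourth vehicle library was the lowest of all 7. The log2 fold change of Rbp4 was 0.02 (SE 0.09, 95% interval -0.17 to 0.21, edgeR adjusted p = 0.942). The interval of Ttr included the value fitted for Gcg and those of Sst and Rbp4 did not, but differences between genes were not tested.

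Among the homeobox genes, Irx2 (chromosome 13, 72628820 to 72634198, plus strand) fell by 0.83 on the log2 scale (SE 0.17, 95% interval -1.18 to -0.47, edgeR adjusted p = 0.00228), a 1.77-fold decrease. Its counts were 69, 52, 57 and 51 in vehicle libraries 1 to 4 and 35, 27 and 35 in IL1B libraries 1 to 3, or 9.18, 8.12, 10.2 and 9.56 CPM against 5.02, 4.42 and 5.83. Every IL1B library was below every vehicle library. The means were 9.26 ± 0.866 (SD, n = 4) and 5.09 ± 0.707 CPM (SD, n = 3). Irx2 passed in each of the 15 alternative fits, with log2 fold changes from -0.93 to -0.74 and adjusted p from 0.000316 to 0.015.

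Irx1 (chromosome 13, 71957921 to 71963723, minus strand), on the same chromosome, did not pass. It had 16, 17, 13 and 11 counts with vehicle and 19, 6 and 15 with IL1B, and the groups overlapped because IL1B libraries 1 and 3, at 2.73 and 2.50 CPM, were above and within the vehicle range of 2.06 to 2.66. The log2 fold change was -0.10 (SE 0.33, 95% interval -0.80 to 0.60, edgeR adjusted p = 0.905) and became 0.22 without the second IL1B library. Its interval reached nearly to the value of Irx2, and the difference between the 2 genes was not tested. Hhex (chromosome 19, 37434810 to 37440731, plus strand) had 1 count in all, in the third IL1B library, which allows no comparison.

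**Figure D3:**
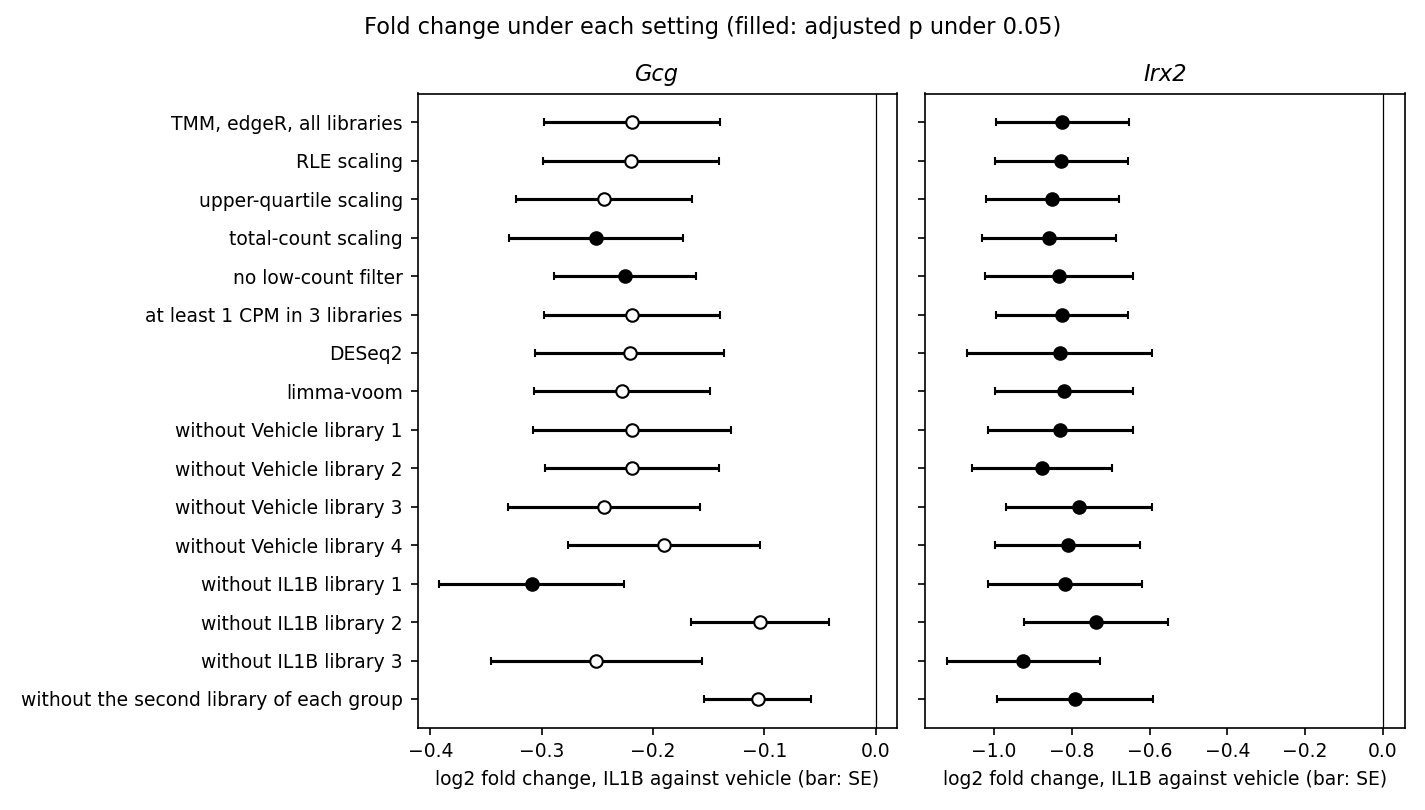
Log2 fold change of Gcg and Irx2, IL1B against vehicle, with SE, over all libraries and in each of 15 alternative fits; filled points have an adjusted p under 0.05. Irx2 is filled in every row, from -0.93 to -0.74, and Gcg is filled in 3 rows and moves to -0.10 without the second IL1B library.

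Several regulators of the glucagon gene fell. Of 14 such genes 10 were tested, and 6 fell and 1 rose, where 3.25% of all tested genes fell and 7.76% rose. The median log2 fold change was -0.355, against -0.0087 over all tested genes. This list and those below were chosen with earlier results of these data known, and some share genes. Their counts were not tested as sets. Isl1, a LIM homeobox activator, fell 1.5-fold (353 ± 5.34 to 230 ± 15.4 CPM; edgeR adjusted p = 4.28e-07), and Foxa2, a forkhead factor, fell 1.56-fold. Maf fell 1.43-fold. Pax6, which activates Gcg and other islet hormone genes, stood at 390, 392.5, 391 and 415 CPM with vehicle and at 311, 257 and 304 CPM with IL1B, a 1.33-fold fall (edgeR adjusted p = 0.000129). Neurod1 and Cdx2, named after their values were seen, fell 1.23-fold and 1.53-fold. Of the 6 that fell, Pax6, Isl1, Neurod1 and Maf were lowest in the second IL1B library, as Gcg was. Foxa2 and Cdx2 were lowest in the first. The counting intervals of the lowest and the next IL1B library overlapped for Isl1, Neurod1, Maf, Foxa2 and Cdx2, and did not for Pax6. The second IL1B library also stood apart from its group (chi-square divided by its degrees of freedom, 4.2 and 2.87, against 1.69). These ranks therefore cannot show a link to Gcg, which was not tested for any of these genes. Ctnnb1, which encodes beta-catenin, rose 1.13-fold, a call lost with upper-quartile scaling (edgeR adjusted p = 0.0743), with total-count scaling (0.0902), with no low-count filter (0.067) and without any 1 library other than the second vehicle library (0.0515 to 0.173). Pou3f4 and Foxa1 were among the 4 below the filter.

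**Figure D4:**
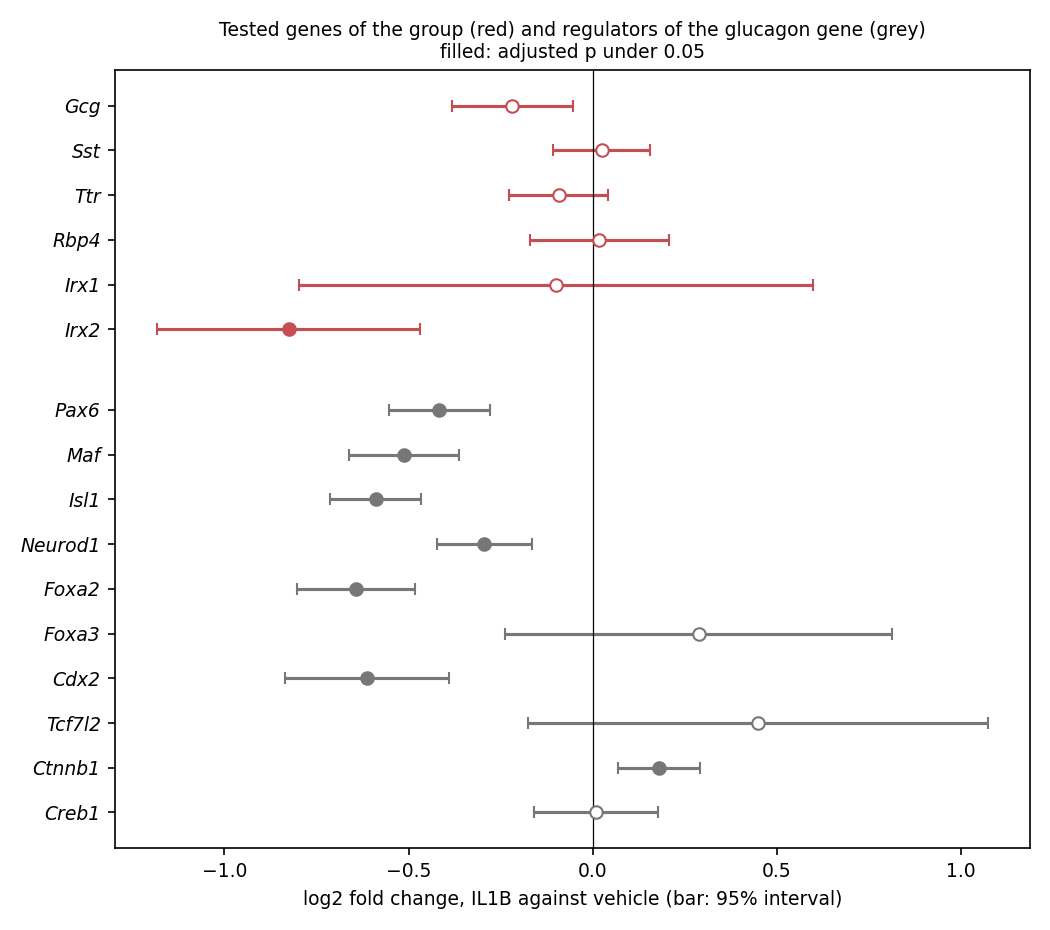
Log2 fold change, IL1B against vehicle, with its 95% interval for the 6 tested genes of the group (red) and the 10 tested regulators of the glucagon gene (grey); filled points have an adjusted p under 0.05. Irx2 and 6 regulators lie to the left of 0 and are filled, and Gcg lies nearer to 0 than those 6.

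Other genes of alpha, delta and PP cells included 4 that fell among 10 tested, where 3.25% of all tested genes fell and 7.76% rose. None of the 10 rose with edgeR or with the 2 other tools. At an unadjusted edgeR p under 0.05 there was 1 upward, Id4 (adjusted p = 0.148). Of 11 further alpha-cell genes 5 were tested and 2 fell (median -0.312): Slc7a2, a cationic amino acid transporter, 1.37-fold (272 ± 29.6 to 194.5 ± 7.90 CPM; edgeR adjusted p = 0.00021), and the peptidase gene Dpp4 1.35-fold. Of 5 further delta-cell genes with counts 2 were tested, and Ptprz1, a receptor phosphatase, fell 1.22-fold (edgeR adjusted p = 0.0295), a call lost with DESeq2 (adjusted p = 0.0577) and without any 1 library other than vehicle library 2 and IL1B library 3 (0.0534 to 0.123). Of 7 further PP and epsilon-cell genes 3 were tested, and the ETS factor gene Etv1 fell 1.30-fold (edgeR adjusted p = 0.000852). In the wider Iroquois family Irx5 and the related Mkx were tested and did not pass, at log2 fold changes of -0.74 (SE 0.33) and -0.47 (SE 0.16), with edgeR adjusted p of 0.189 and 0.0675. Mkx passed with total-count scaling (0.0474), with no low-count filter (0.0309) and without the first vehicle library (0.0229). Irx3, Irx4 and Irx6 had 2, 2 and 1 counts over the 7 libraries.

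Transcripts of receptors for the hormones and carriers were at unlike levels in this line. Gcgr, the glucagon receptor, and Ppyr1, the pancreatic polypeptide receptor, had 1 count each over the 7 libraries, and Stra6, a receptor for the retinol carrier, had 9 with vehicle and 3 with IL1B. The main somatostatin receptor transcript was Sstr3, at 89.3 ± 1.5 CPM with vehicle and 74.0 ± 2.09 with IL1B, a 1.18-fold fall (edgeR adjusted p = 0.0192). It lost its call without the third vehicle library (adjusted p = 0.0588) and without IL1B library 1 or 3 (0.063 and 0.107). Glp1r, the receptor of the peptide GLP-1 made from the Gcg precursor, fell 1.27-fold (edgeR adjusted p = 0.0256), with overlapping groups (79.3 to 108 and 69.6 to 85.9 CPM), and no longer passed when vehicle library 1 or 4, or IL1B library 1 or 3, was left out (0.095 to 0.143). Of 10 receptor genes with counts 4 were tested, and these 2 fell and none rose, also with DESeq2 and limma-voom or at an unadjusted p under 0.05. Over all tested genes 3.25% fell and 7.76% rose by edgeR. In prohormone processing, Furin, a protease of the secretory pathway, fell 1.26-fold (edgeR adjusted p = 0.00899), and Pcsk1n, an inhibitor of the prohormone convertase PC1, rose 1.2-fold (edgeR adjusted p = 0.0469) with overlapping groups, while 5 of the 7 tested genes did not pass. Pcsk1n lost its call in 9 of 15 alternative fits: with upper-quartile or total-count scaling, the 1 CPM filter, limma-voom, and when vehicle library 1, 3 or 4, or IL1B library 2 or 3, was left out (IL1B library 2 giving the highest adjusted p, 0.344).

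Factors that hold back other islet fates in beta cells also fell in part. Of 9 tested 3 fell and none rose (median -0.164), where 3.25% of all tested genes fell and 7.76% rose. Pdx1 fell 1.48-fold (edgeR adjusted p = 3e-07), Mafa 1.39-fold and Nkx2-2 1.19-fold. Nkx2-2 lost its call without the second IL1B library (edgeR adjusted p = 0.0759). Of 7 regulators of the somatostatin gene 6 were tested and 3 fell, Pdx1, Pax6 and Isl1, with Sst at the values given above. These 3 were also counted in the lists above. None of the 11 tested genes of retinoid and thyroid hormone handling passed in edgeR, nor did any with DESeq2 or limma-voom, and the unadjusted edgeR p was under 0.05 for none of them; Rxrb and Rxra, nuclear receptors of this group, had log2 fold changes of 0.08 and -0.09.

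The genes whose profile over the 7 libraries was nearest to that of Gcg, by the mean absolute difference of centred log2 CPM over 10899 genes of at least 5 CPM, were Tmem184c (0.0281 log2 units), Rbl2 (0.0314) and Asf1a (0.0349). They had log2 fold changes of -0.24, -0.23 and -0.16 and did not pass by edgeR (adjusted p 0.0666 to 0.388), though Tmem184c passed in 4 alternative fits. The nearest to Irx2 were Nr4a2 (0.0825), Asap2 (0.0862) and Lingo1 (0.0895), which fell by 0.88, 0.63 and 0.81 on the log2 scale. Nearness was measured over the same 7 libraries, so fold changes close to those of Gcg and Irx2 follow from the selection.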

How the data were processed

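Raw counts, as deposited by the authors, came in 1 table with a row for each gene symbol and 7 columns of libraries. Per the submitters' processing notes the build was mm10, and STAR, RSEM, HOMER, Bowtie2, DESeq2 and R 4.1.0 were among the tools, without roles; how counts were made, on which annotation and with which strand setting, is not stated. Vehicle columns match sample titles. The table numbers its IL1B columns 1, 2 and 3 and the titles number the samples 1, 3 and 4, so IL1B columns were assigned to the group only.

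The test was edgeR 4.0.16 under R 4.3.3 (scaling by TMM, filterByExpr, quasi-likelihood F test, Benjamini-Hochberg over 12480 genes, threshold 0.05). The SE was derived from the F statistic. CPM are per 1e+06 counts of the library total. On simulated counts for 12480 genes, with 200 changed, the test recovered 72.4% of 1.5-fold, 91.4% of 2-fold and 100% of 4-fold changes, with 3.43% false calls. The simulated libraries had no length trend and no second library that stood apart, so these rates need not hold for the real libraries. No change as small as that of Gcg (1.16-fold) was simulated. Alternatives were other scalings and filters, DESeq2 1.42.0, limma-voom (limma 3.58.1) and leaving out libraries. No member had another gene overlapping it in GENCODE M21, and only Hhex shared any stretch at 95% identity with another gene (blastn 2.17.0; 3.22% of its transcript). Promoters of the members were looked up in the RefSeq table outside chromosome 18, which holds Ttr, and were found for 6 of the 8 genes. The members and lists were chosen with earlier results of these data known. Named genes were all members, from each list up to 4 genes past the threshold with the smallest adjusted p or otherwise the 2 most abundant tested, 9 fixed symbols (some are not reported here), and the 3 nearest profiles of Gcg and Irx2.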

Additional observations from a re-analysis of the deposited data

Results flagged for a closer look

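Dixon's test set 1 vehicle library apart from the rest in 3 of 47 genes, and about 1 in 20, or 2.35 of 47, would be set apart by chance. None of the 8 members was among them. Pax6 was at 414.9 CPM in the fourth vehicle library and at 389.7 to 392.5 in the others. Pyy was at 0.1787 CPM in the third vehicle library and Ghrl at 0.1874 CPM in the fourth, with 0 in the others, and each of these values is a single count.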

How the results depend on the processing

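The number of members that fell, 1, became 2 with total-count scaling (Gcg and Irx2), 3 with no low-count filter (Gcg, Irx2 and Ppy), 2 with a minimum of 1 CPM in 3 libraries (Irx2 and Ppy) and 2 with both second libraries left out (Irx2 and Ppy), and 1 to 2 when each library was left out in turn; none rose in any of the 15 alternatives. Over all genes 252 to 589 fell when each library was left out in turn and 676 with both second libraries left out, against 406. Among the other listed genes 3 rose, but 1 did with upper-quartile scaling, 1 with total-count scaling, 1 to 8 when each library was left out and 9 with both second libraries left out. The Gcg to Ins2 ratio stayed lower with IL1B in all 9 alternatives, of which 1, without length scaling, cannot change the log2 difference. Leaving out the second library of each group, and the alternatives for Ppy, were chosen after seeing the data. No paired analysis was possible because the IL1B columns carry numbers that do not match the sample titles, so the planned replicate block was not run. Low counts limit Ppy, Hhex and Irx1.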

Other observations

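Peptide hormones outside the islet set were also transcribed in this line, named here after their values were seen. With vehicle, Npy (neuropeptide Y) stood at 1269 ± 70.0 CPM, Cck (cholecystokinin) at 892 ± 65.2 and Sct (secretin) at 675.5 ± 66.8 (SD, n = 4), while Vip and Crh had no count in any library. Of 10 tested genes of this list 1 rose and none fell: Pdyn, the dynorphin precursor, averaged 98.95 ± 4.07 CPM with vehicle and 123 ± 12.3 with the cytokine, a rise of 1.27-fold that passed in edgeR (adjusted p = 0.00211), and every IL1B library was above every vehicle library. None fell at an unadjusted p under 0.05. Over all tested genes 7.76% rose and 3.25% fell by edgeR, and groups did not overlap with IL1B higher for 10.1%. Npy passed upward when vehicle library 2 was left out (edgeR adjusted p = 0.018) and with both second libraries left out (0.0162). Iapp, a beta-cell hormone also in this list, passed upward without vehicle library 2 (edgeR adjusted p = 0.0039), without IL1B library 2 (0.0333) and with both left out (2.11e-06). Ins1 and Ins2, not in this list, also passed upward without vehicle library 2 (edgeR adjusted p = 0.0305 and 0.0274) and with both left out (0.0158 and 0.0194).

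Slc38a5, an amino acid transporter known from alpha cells, averaged 1078 ± 14.3 CPM in the vehicle libraries. In the IL1B libraries it averaged 998 ± 26.4 CPM, and the groups did not overlap, but the difference did not pass in edgeR (adjusted p = 0.381). On this scale 11.8% of all tested genes had groups that did not overlap with IL1B lower.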
